A study of Arabidopsis thaliana with 15 samples.

Results

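The comparison asked where sorted provascular cells and sorted stele cells of the Arabidopsis thaliana root answered 2 h of brassinolide differently. For each probe set it took the log2 change with brassinolide in the ATHB15 line minus the log2 change in the WOL line. It rests on 9 of the 15 arrays of the study: ATHB15 BL 2 h (2 arrays), ATHB15 control (3 arrays), WOL BL 2 h (2 arrays) and WOL control (2 arrays). Of 22746 tested probe sets, 13329 (58.6%) were called present on all arrays of at least 1 of these 4 groups, and they are described here.

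All 4 groups were protoplasts from primary roots of seedlings 6 days old, collected by fluorescence-activated cell sorting and hybridised to Affymetrix ATH1 arrays, 1 array per sample. ATHB15 cells carried pAtHB15:YFP, a yellow fluorescent protein under the promoter of a class III HD-ZIP transcription factor gene, and the labels call them provascular. WOL cells carried pWOL:GFP, a green fluorescent protein under the promoter of a cytokinin receptor gene, and the labels call them stele, the tissue that contains the provascular cells. BL groups had spent 2 h on medium with 10 nM brassinolide (BL) before the cell walls were digested, and control groups were the 0 h point. The labels name no mock-treated group for the same 2 h, the fluorescence gate is described for GFP, and the labels do not say whether replicates were separate cultures, so a p may measure technical spread. In sorted bulk samples, fewer cells of a type and less RNA per cell cannot be told apart.

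Brassinosteroids are plant steroid hormones that bind the receptor kinase BRI1 at the cell surface, or its relatives BRL1 and BRL3, which are known from vascular cells. The signal inactivates the kinase BIN2, and the transcription factors BZR1 and BES1 then reach the nucleus and raise or lower their target genes. Expansins, xyloglucan endotransglucosylase/hydrolases (XTH enzymes, which cut and rejoin wall xyloglucan) and other genes of wall loosening are known brassinosteroid targets in elongating tissue.

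Some array properties moved with the groups. The deposited signal is a brightness scaled to a trimmed mean of 250 on each array, and 49.5% to 59.6% of probe sets were called present. The ratio of the 3' to the 5' signal of UBQ, a sign of RNA quality, was 9.07 and 5.99 in ATHB15 BL, against 4.85, 4.53 and 4.01 in ATHB15 control. In WOL it was 4.90 and 3.79 with BL, against 5.07 and 7.43 in the controls. The ratio was thus higher with BL in ATHB15 and lower with BL in WOL, with no overlap in either line. The GAPDH ratio overlapped in both lines, and the actin ratio overlapped in ATHB15 but was 26.1 and 24.1 in WOL BL, against 28.4 and 48.3 in WOL control. WOL control B had the highest of the UBQ, GAPDH and actin ratios among the 4 WOL arrays compared.

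The difference between lines was called for 28 of the 13329 present probe sets (0.210%) at an adjusted p under 0.05 (limma's moderated test, Benjamini-Hochberg over all 22746). The change with BL was lower in ATHB15 than in WOL for 21 of them (0.158%) and higher for 7 (0.0525%). They include 3 genes related to vacuolar calcium-binding proteins, 2 dirigent genes, the expansin-like gene EXLA2, and genes for a lipid-transfer protein, a receptor-like kinase and an ERF transcription factor on the lower side. On the higher side stood genes for an oligopeptidase, an F-box protein, an RNA helicase and 2 cell wall proteins. Of the 28, 18 match 1 gene and 10 have no gene in the annotation used here. A 29th called probe set, unnamed, was not among the present ones.

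All 28 fitted changes had opposite signs in the lines, but WOL changes contributed less than ATHB15 changes to most. Opposite signs were also seen in 93.6% of the 2158 present probe sets whose difference had an unadjusted p under 0.05 (limma). The sign count therefore says little about the 28 in particular. In ATHB15 the change itself was called for 27 of the 28, where 242 of all present probe sets were called (1.82%). In WOL it was called for 0 of the 28 by limma, as for 0 of all present probe sets; 17 of the 28 had an unadjusted p under 0.05 there, a level that 856 present probe sets reached (6.42%). The ATHB15 change was the larger in 26 of 28. The test of the difference shares its arrays with both, so these counts describe the same signals.

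Across all present probe sets the opposite combination was common. The fitted changes had opposite signs in 56.6% of them, of which 24.2% of all were lower in ATHB15 and higher in WOL and 32.3% the reverse. Across probe sets the changes of the lines correlated at r = -0.16 (Spearman's rho -0.18, n = 13329, a description since probe sets share arrays). Leaving out 1 array gave r between -0.26, with WOL BL 2 h A left out, and -0.04, with WOL BL 2 h B left out, and -0.06 with WOL control B left out. The median difference was 0.10 on the log2 scale, with a median SE of 0.54, and the smallest difference called was 2.41.

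**Figure D1:**
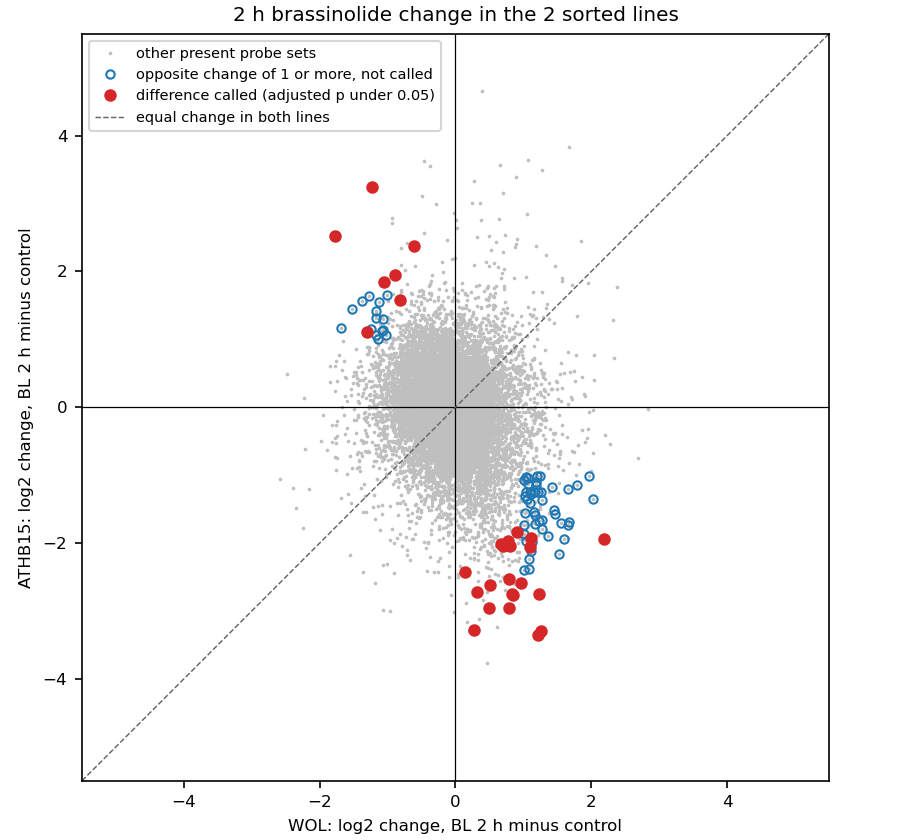
Log2 change with 2 h of BL in ATHB15 cells (vertical) against WOL cells (horizontal), 1 point for each of 13329 present probe sets. The 28 called differences (red) lie in the 2 areas of opposite sign, mostly low on the vertical axis, and blue rings mark other probe sets with opposite changes of 1 or more and no overlap of arrays in either line.

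The single arrays carried much of the count. Leaving out each of the 9 arrays in turn gave 0 to 128 calls: 128 with WOL control A left out, 0 with WOL control B, WOL BL 2 h B, ATHB15 control 1, ATHB15 control 3 or ATHB15 BL 1 left out, and 1, 6 and 2 with WOL BL 2 h A, ATHB15 control 2 and ATHB15 BL 2 left out. All 28 differences kept their sign each time, but they were chosen as large differences on these same arrays, so this is no independent check. With the log2 UBQ ratio as a covariate 0 were called, again with 28 of 28 signs kept and a median size 0.851 of the reported one. The part of the UBQ ratio in these differences was not tested further.

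Among the genes lower in ATHB15, the 3 vacuolar calcium-binding protein-related genes had high signals in most groups. The signal of AT1G62480 was 75.7 and 252 in ATHB15 BL cells, against 1598, 1573 and 1395 in ATHB15 control cells. WOL cells had 2538 and 3645 in WOL BL cells, against 1398 and 1143 in WOL control cells. The groups do not overlap in either line, and the ATHB15 BL arrays are the low ones while the WOL BL arrays are the high ones. Its log2 change was -3.29 in ATHB15 and 1.26 in WOL, a difference of -4.55 ± 0.62 (SE; adjusted p = 0.0185, limma), which was -3.77 when ATHB15 BL 1 was left out and -5.32 when ATHB15 BL 2 was. AT1G12080 had signals of 225 and 256 in ATHB15 BL cells, against 1816, 1339.5 and 1447 in ATHB15 control cells. Its WOL signals were 2615 and 3254 in WOL BL cells, against 1763 and 1247 in WOL control cells. Both lines again separate without overlap, in opposite directions, and the difference was -3.55 ± 0.49 (adjusted p = 0.0185, limma). Separation in any direction was common, at 39.9% of all present probe sets in ATHB15, 37.8% in WOL and 15.3% in both. AT3G59370 was dimmer, at 22.9 and 28.5 in ATHB15 BL cells, against 242, 279 and 276 in ATHB15 control cells. The WOL signals were 529 and 435 in WOL BL cells, against 348 and 195 in WOL control cells. It was called absent on 1 of 2 ATHB15 BL arrays, and differed by -3.59 ± 0.49 (adjusted p = 0.0185, limma). The 3 genes thus had the same pattern: control cells of both lines at similar signals, ATHB15 BL cells far below them, WOL BL cells above them.

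EXLA2, an expansin-like wall protein gene, was the called gene with the highest WOL change. Its signal was 955 and 1084 in WOL BL cells, against 239 and 187 in WOL control cells. In ATHB15 it was 18.7 and 4.9 in ATHB15 BL cells, against 146, 84.1 and 52 in ATHB15 control cells. Both ATHB15 BL arrays and 2 of 3 ATHB15 control arrays were called absent, so the WOL arrays hold nearly all of the measured signal. The WOL change was 2.18 ± 0.44 (SE, not called) and the difference was called (adjusted p = 0.0226, limma), with no size given.

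Further lower calls were 2 dirigent genes and a lipid-transfer protein, a cupredoxin and a receptor-like kinase gene. The dirigent genes, whose relatives guide lignan and lignin coupling, were AT4G11210 and AT1G55210. The signal of AT4G11210 was 102 and 208 in ATHB15 BL cells, against 2171, 1331 and 1310.1 in ATHB15 control cells. Its WOL signals, 1806 and 1896 in WOL BL cells, against 2164 and 1078 in WOL control cells, overlap. AT1G55210 read 192 and 113 in ATHB15 BL cells, against 966, 782 and 864 in ATHB15 control cells. Its WOL signals, 1682 and 1809 in WOL BL cells, against 1875 and 1343 in WOL control cells, overlap as well. For both, the difference, -3.55 ± 0.56 and -2.57 ± 0.46 (adjusted p = 0.0326 and 0.0495, limma), lay almost wholly in the fall in ATHB15, and the WOL change was 0.27 and 0.14. The lipid-transfer protein gene AT1G73780 had signals of 83 and 92.2 in ATHB15 BL cells, against 791, 915 and 666 in ATHB15 control cells. WOL arrays read 596 and 1071 in WOL BL cells, against 434 and 485 in WOL control cells. It separated in both lines and differed by -3.73 ± 0.49 (adjusted p = 0.0185, limma). The cupredoxin gene AT1G72230, of a family of small copper-binding proteins, differed by -3.43 ± 0.61 (adjusted p = 0.0492, limma). Its signals were 103 and 92.3 in ATHB15 BL cells, against 923, 617 and 1112 in ATHB15 control cells. The leucine-rich repeat receptor-like kinase gene AT1G79620 had 103 and 76.9 in ATHB15 BL cells, against 916, 519.9 and 645 in ATHB15 control cells. Its signal in WOL was 822 and 768 in WOL BL cells, against 924 and 435 in WOL control cells, which overlap, and its difference was -3.03 ± 0.54 (adjusted p = 0.0499, limma).

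The remaining named genes of the lower side were often at the detection limit in ATHB15 BL cells. AT2G01300 was not detected on either ATHB15 BL array, at 37.3 and 11 in ATHB15 BL cells, against 584, 248 and 353 in ATHB15 control cells. Its WOL signals were 989 and 1166 in WOL BL cells, against 736 and 279 in WOL control cells. Its fitted difference was -4.56 ± 0.67 (adjusted p = 0.0242, limma), resting on ATHB15 BL signals called absent, and was -3.89 with WOL control B left out and -5.24 with WOL control A left out. AT1G78260, which encodes an RNA-binding protein, was absent on both of these arrays too, at 67.1 and 61.3 in ATHB15 BL cells, against 339, 330.2 and 288 in ATHB15 control cells. In the WOL line it was at 466 and 781 in WOL BL cells, against 378 and 198 in WOL control cells. Its fitted difference was -3.15 ± 0.52 (adjusted p = 0.0388, limma). AT1G22810, an ERF transcription factor gene, read 20.1 and 24.1 in ATHB15 BL cells, against 155, 109.5 and 140.0 in ATHB15 control cells. WOL cells had 227 and 235 in WOL BL cells, against 160.3 and 103 in WOL control cells. The BL arrays were absent in ATHB15 and the higher ones in WOL, with a fitted difference of -2.75 ± 0.46 (adjusted p = 0.0417, limma). AT5G10750, a gene of unknown function, was present on all 9 arrays, at 113 and 68.4 in ATHB15 BL and 411, 451 and 376 in ATHB15 control cells, and 656 and 577 in WOL BL and 393 and 302 in WOL control cells. It differed by -2.84 ± 0.42 (adjusted p = 0.0242, limma).

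**Figure D2:**
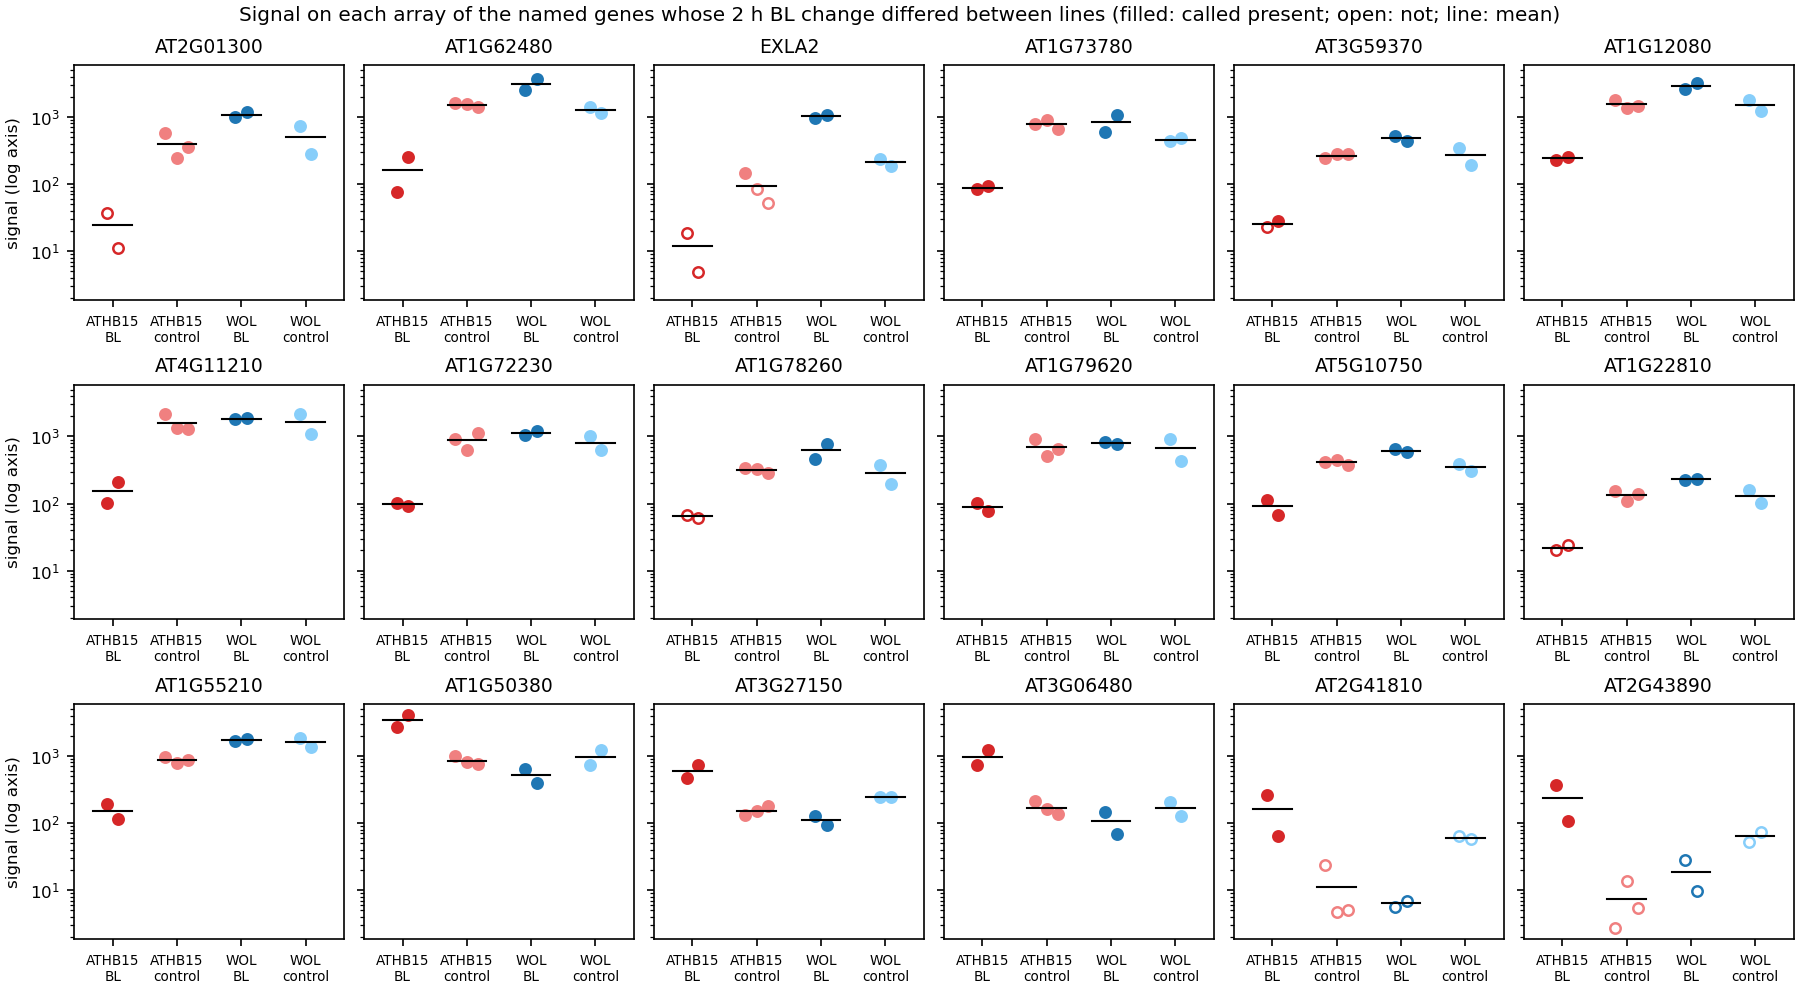
Signal on each array (log axis) of the 18 named genes with a called difference, by group, with the group mean as a line; filled points were called present. In the first 13 panels the ATHB15 BL points lie below every other group's, and in the last 5 they lie above, by the least for AT2G41810, where 1 ATHB15 BL array was at 63.7 and a WOL control array at 63.5.

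On the higher side, 5 named genes were called. AT1G50380, a prolyl oligopeptidase gene, had signals of 2696 and 4087 in ATHB15 BL cells, against 982, 812 and 759 in ATHB15 control cells. The WOL signals were 644 and 393 in WOL BL cells, against 735 and 1212 in WOL control cells. ATHB15 BL arrays were high and WOL BL arrays low, without overlap in either line, and the difference was 2.84 ± 0.51 (adjusted p = 0.0499, limma). AT3G27150, an F-box gene with kelch repeats and a known target of miR2111, read 469 and 736 in ATHB15 BL cells, against 131, 151 and 177 in ATHB15 control cells. WOL arrays read 129 and 94.5 in WOL BL cells, against 247 and 245 in WOL control cells. It too separated in both lines, and differed by 2.90 ± 0.46 (adjusted p = 0.0326, limma). The DEAD-box RNA helicase gene AT3G06480 was at 725 and 1215 in ATHB15 BL cells, against 215, 160.4 and 135 in ATHB15 control cells. Its WOL signals, 146 and 68.6 in WOL BL cells, against 207 and 127 in WOL control cells, overlap, and the difference was 2.99 ± 0.53 (adjusted p = 0.0492, limma), a call lost without any 1 of the 9 arrays.

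The other 2 higher calls were wall-related genes not detected in the WOL control and WOL BL 2 h groups. AT2G41810, of the DUF642 family of wall proteins, had 261 and 63.7 in ATHB15 BL cells and was called absent on the other 7 arrays. AT2G43890, a pectin lyase-like gene, had 364 and 107 in ATHB15 BL cells and was likewise absent on the other 7. The WOL changes of the 2 genes at 2 h were therefore not measured, and no size is given for their differences (adjusted p = 0.0435 and 0.0492, limma). The fitted differences were 3.40 and 3.67 without ATHB15 BL 1, and 5.19 and 5.29 without ATHB15 BL 2. Apart from these 2 genes, the called probe sets, 21 lower and 5 higher, were each called present on at least 1 array of either line.

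The lines were close in the controls and apart after BL at the 21 lower probe sets. The median signal was 88.6 in ATHB15 BL and 658 in ATHB15 control, against 1073 in WOL BL and 651 in WOL control. Between the controls ATHB15 minus WOL differed by a median of 0.05 on the log2 scale (range -1.19 to 0.75), and the control arrays of the lines overlapped at 16 of the 21 and did not at 5. Between the BL groups it differed by a median of -3.40 (range -5.26 to -2.54), without overlap at all 21. Over all present probe sets the BL arrays of the lines did not overlap at 70.9% and the control arrays at 36.5%. At the 7 higher probe sets the median was -0.55 between controls and 2.68 between BL groups. These medians come from the same values as the difference and describe how it is made up.

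WOL values after 0.5, 1 and 4 h of BL, on 6 further arrays, are given as a description. They are set against the same WOL controls, which helped to choose the 28, and those arrays enter the residual spread of the fit, so they are no independent check. At the 21 lower probe sets both BL arrays were above both controls for 16, 15 and 10 of them after 0.5, 1 and 4 h, and below both for 0 at each of these times. Over all present probe sets, which were not chosen on these controls, the share above was 21.5%, 15.1% and 10.5%, in the same order. The median change of the 21 was 0.62, 0.61, 0.81 and 0.55 after 0.5, 1, 2 and 4 h. At the 7 higher probe sets both BL arrays were below both controls for 3, 4 and 6 after 0.5, 1 and 4 h, where the share over all present probe sets was 30.7%, 26.4% and 18.4%. At 0.5 h, 3 of the 7 were above both controls.

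**Figure D3:**
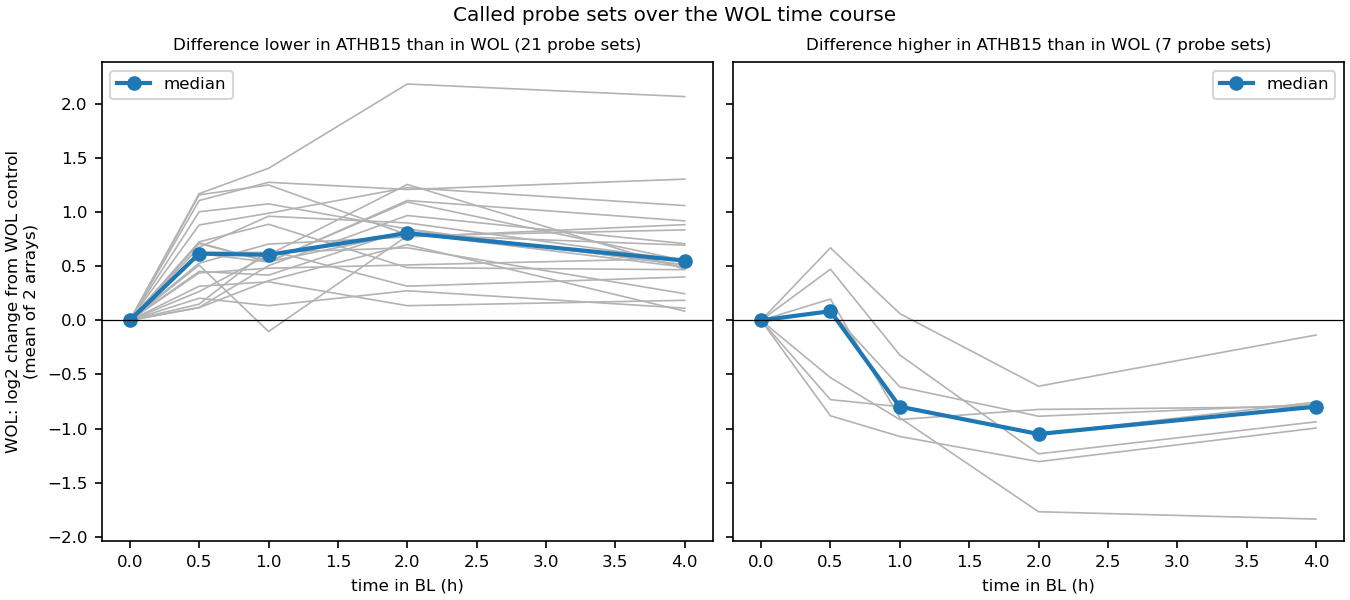
WOL log2 change from the WOL control over 0, 0.5, 1, 2 and 4 h of BL for the 21 lower (left) and 7 higher (right) called probe sets, each thin line the mean of 2 arrays and the thick line the median. The medians at left stay between 0.55 and 0.81 after 0 h, and at right the median is 0.09 at 0.5 h and -0.80 at 1 and 4 h.

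The higher values with BL in WOL leaned on 1 control array. WOL control B was below WOL control A at 20 of the 21 lower called probe sets, against 42.8% of all present probe sets. The median WOL change of the 21 was 0.81 with both controls, 0.54 with WOL control B left out and 1.06 with WOL control A left out, and it was positive for 18 of 21 when WOL control B was left out. At the 7 higher probe sets the median WOL change was -1.05, and -1.04 without WOL control B.

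Opposite changes of at least 1 on the log2 scale in each line were then listed, requiring that BL and control arrays did not overlap in either line. The rule was met by 71 of 13329 present probe sets (0.533%), 52 lower in ATHB15 and higher in WOL (0.390%) and 19 the reverse (0.143%). No overlap in either line was seen for 15.3% of present probe sets. The same limits were met by 41 probe sets changing the same way, 16 higher in both lines and 25 lower in both. Of the 71, 10 were called for the difference, and 66 had both lines measured, that is, in neither line were both groups called absent on all their arrays. The 71 were picked by the sizes of both changes, so these sizes carry no test.

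This list depends strongly on the WOL controls and on the UBQ ratio. WOL control B was below WOL control A at 49 of the 52 probe sets. Their median WOL change was 1.19, against 0.59 with WOL control B left out and 1.82 with WOL control A left out. The WOL change was positive at all 52 without either control, which the rule of no overlap fixes in advance. Without WOL control B the rule was met by 38 probe sets, 9 lower in ATHB15 and 29 higher, of which 14 were among the 71. Without WOL control A it was met by 317, of which 70 were among the 71. With the UBQ ratio as a covariate it was met by 56, of which 28 were among the 71. Of the 34 named genes among the 71, 24 had a difference that moved by over 1.5-fold when 1 array was left out, 18 of them by leaving out WOL control A and 18 by leaving out WOL control B. Without WOL control A, 15 of the 34 gained a call, and the median difference of the lower ones was -3.65, where it was -2.97 with all arrays and -2.34 without WOL control B.

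**Figure D4:**
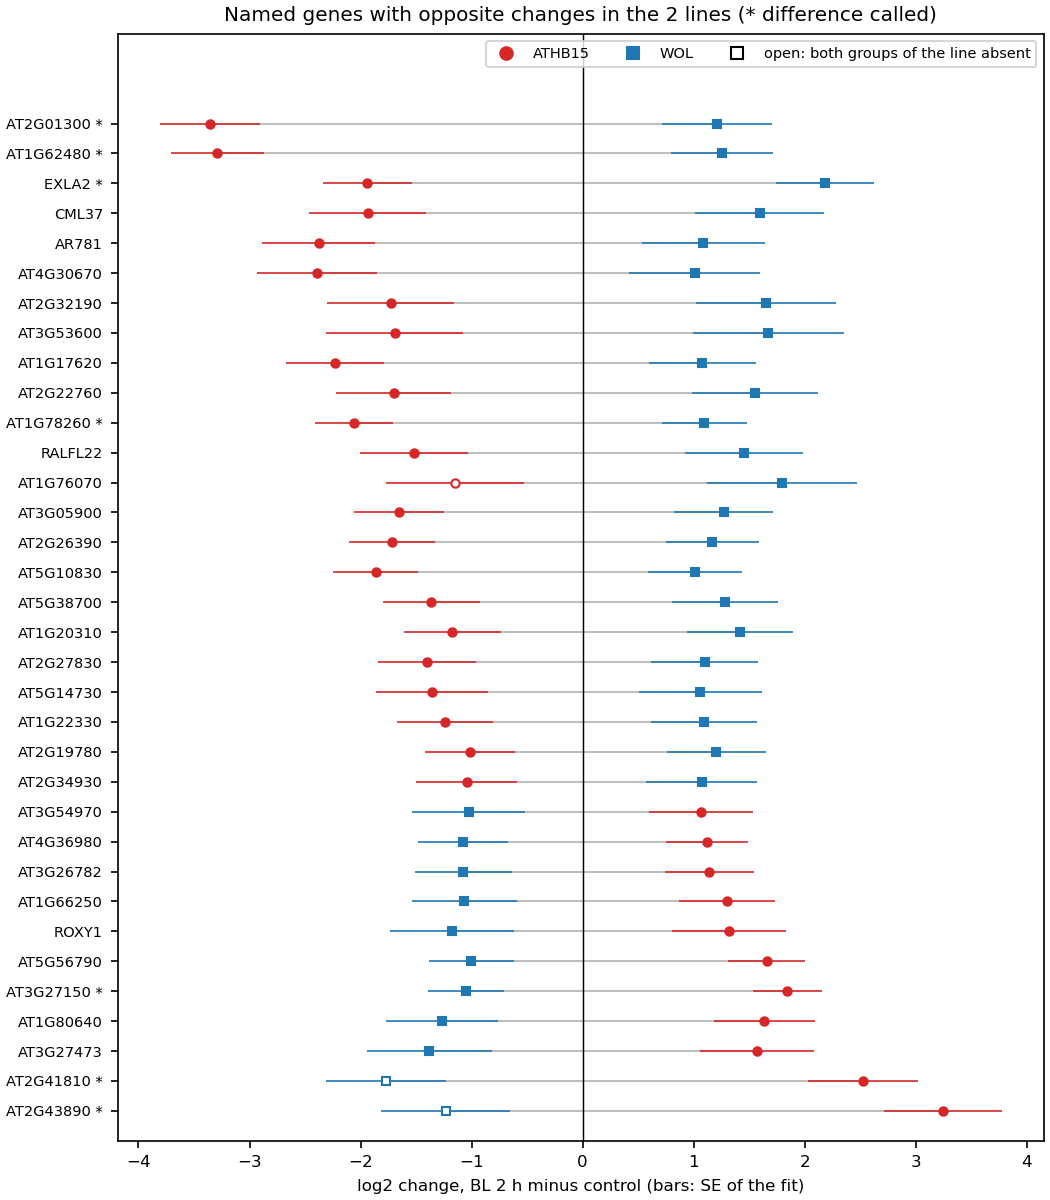
Log2 change with BL in ATHB15 (red circles) and WOL (blue squares) for the 34 named genes that met the opposite-sign rule, with the SE of the fit, and open symbols where both groups of a line were called absent. The upper 23 genes were lower with BL in ATHB15 and higher in WOL, the lower 11 the reverse, and asterisks mark called differences.

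By function, the 23 named genes lower in ATHB15 and higher in WOL included 1 calmodulin-like gene and 2 transcription factor genes, which were not called for the difference. CML37, a calmodulin-like calcium sensor, had signals of 16.5 and 23.1 in ATHB15 BL cells, against 119, 107 and 137 in ATHB15 control cells. It was called absent on ATHB15 BL 1 and marginal on ATHB15 BL 2. Its signal in WOL was 817 and 808 in WOL BL cells, against 571 and 112 in WOL control cells. Its arrays separate in both lines, though WOL control B lies far below WOL control A. The difference was -3.53 ± 0.79 (adjusted p = 0.0917, limma), which was -4.63 when WOL control A was omitted and -2.43 when WOL control B was. The 2 transcription factor genes were AT3G53600, of the C2H2 zinc finger class, and AT2G22760, of the bHLH class. AT3G53600 had 5.8 and 21.1 in ATHB15 BL cells, against 215, 35 and 50.2 in ATHB15 control cells. It was called absent on ATHB15 BL 1. Its WOL signals were 2014 and 1352 in WOL BL cells, against 1048 and 242 in WOL control cells. It was much brighter in WOL in both groups, and differed by -3.36 ± 0.92 (adjusted p = 0.151, limma). That difference was -4.39 and called when WOL control A was omitted, -2.34 when WOL control B was and -2.70 when ATHB15 control 1 was. AT2G22760 was absent on both ATHB15 BL arrays and differed by -2.96 or lower (adjusted p = 0.111, limma). RALFL22, which encodes a secreted peptide of the rapid alkalinization factor family, had 167 and 51.5 in ATHB15 BL cells, against 295, 264 and 354 in ATHB15 control cells. In the WOL line it was at 1993 and 1138 in WOL BL cells, against 874 and 331 in WOL control cells. Its difference was -2.97 ± 0.72 (adjusted p = 0.118, limma), and between -3.69 and -2.25 with 1 array left out.

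RNA-binding, leucine-rich repeat and other genes filled the rest of the same side. Beside AT1G78260, the RNA-binding protein gene AT1G22330 differed by -2.33, with ATHB15 signals of 32.5 and 37.6 with BL and 129, 98.8 and 89.2 in the controls. AT1G22330 was called absent on ATHB15 BL 1. The 2 genes of leucine-rich repeat proteins were AT2G34930, at -2.12, and AT2G19780, at -2.22 with both ATHB15 BL arrays absent. AT2G26390, a serpin (protease inhibitor) gene, had 121 and 98.1 in ATHB15 BL cells, against 635, 268 and 361 in ATHB15 control cells. WOL cells had 527 and 653 in WOL BL cells, against 336 and 188 in WOL control cells, and its difference was -2.88 ± 0.57 (adjusted p = 0.0616, limma). AT1G17620, of the hydroxyproline-rich glycoprotein family, had 102 and 128 in ATHB15 BL cells, against 373, 841 and 672 in ATHB15 control cells. The WOL signals were 1514 and 1134 in WOL BL cells, against 783 and 478 in WOL control cells, and it differed by -3.31 ± 0.65 (adjusted p = 0.0615, limma). The methyltransferase gene AT5G10830 differed by -2.88 ± 0.57 (adjusted p = 0.062, limma). AT2G32190, a small cysteine-rich membrane protein gene, differed by -3.38 ± 0.85 (adjusted p = 0.126, limma), or -4.52 when WOL control A was omitted and -2.24 when WOL control B was. It was called absent on ATHB15 BL 1.

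The last 9 genes on that side carry no stated function here. Besides AT2G01300 they were AR781, at -3.47, AT4G30670, at -3.40, AT3G05900, at -2.92, AT5G38700, at -2.64, and AT5G14730, at -2.42. With both ATHB15 BL arrays absent, AT1G20310 was at -2.59 and AT2G27830 at -2.50. AT1G76070 was absent on all ATHB15 arrays, so no size is given. None of these 8 beside AT2G01300 was called for the difference.

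In the reverse group of 11 named genes, wall and kinase genes were the functions with more than 1 member. Beside AT2G41810 and AT2G43890, the wall genes included AT1G66250, of the glycosyl hydrolase family of beta-1,3-glucanases. It had 827 and 2003 in ATHB15 BL cells, against 620.1, 464 and 468 in ATHB15 control cells. WOL arrays read 153 and 218 in WOL BL cells, against 314 and 511 in WOL control cells. Arrays separate in both lines, and the difference was 2.37 ± 0.64 (adjusted p = 0.149, limma). The 2 protein kinase genes were AT5G56790 and AT1G80640. AT5G56790 had 1628 and 1058 in ATHB15 BL cells, against 612, 284 and 380.2 in ATHB15 control cells. Its signal in WOL was 249 and 333 in WOL BL cells, against 486 and 724 in WOL control cells. Its difference was 2.66 ± 0.52 (adjusted p = 0.0615, limma), and that of AT1G80640 was 2.91 ± 0.68 (adjusted p = 0.108, limma).

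ROXY1, a CC-type glutaredoxin known from petal and anther development, belonged to the same side. Its signal was 1197 and 1373 in ATHB15 BL cells, against 206, 749 and 818 in ATHB15 control cells. Its WOL signals were 119 and 132 in WOL BL cells, against 186 and 487 in WOL control cells. ATHB15 control 1 lay well below the other 2 ATHB15 controls, and the difference was 2.49 ± 0.76 (adjusted p = 0.201, limma), or 1.88 without that control and 1.84 without WOL control B. The other members were AT3G27150, already described, AT3G27473, a C1-domain gene, at 2.95, AT3G26782, of the pentatricopeptide repeat family of organelle RNA-binding proteins, at 2.21, AT4G36980, at 2.20, and AT3G54970, an aminotransferase-like gene, at 2.09. Of these 11, AT3G27150, AT2G41810 and AT2G43890 were called by limma.

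Several genes fell just short of the threshold. The nearest inside were AT1G79620, AT1G50380 and the unnamed 252372_at, at an adjusted p of 0.0499, and the nearest outside were AT2G18210, the unnamed 253957_at and 257363_at, at 0.0557. AT2G18210 had 6.2 and 34.1 in ATHB15 BL cells, against 575, 279.6 and 518 in ATHB15 control cells. In the WOL line it was at 2009.8 and 2132 in WOL BL cells, against 2227 and 1004 in WOL control cells. Neither ATHB15 BL signal of AT2G18210 was called present, the first being absent and the second marginal. Its fitted difference of -4.23 ± 0.78 thus rests on signals near the detection limit. That size shrank to -3.64 if ATHB15 BL 1 was dropped, and grew to -4.82 if ATHB15 BL 2 was dropped instead. STZ, which encodes a zinc finger repressor active in stress responses and is the 1 early stress gene of 11 listed with a named probe set, had 215 and 106 in ATHB15 BL cells, against 2727, 1057 and 1349 in ATHB15 control cells. WOL cells had 2098 and 2849.8 in WOL BL cells, against 2205 and 1147 in WOL control cells. Its ATHB15 arrays separate and its WOL arrays overlap, and the difference was -3.86 ± 0.71 (adjusted p = 0.0557, limma).

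Other genes next in order on the lower side were AT1G32920, at -2.91, AT2G30930, at -2.83, AT5G66650, of the mitochondrial calcium uniporter family, at -3.21, AT2G32020, an N-acyltransferase gene absent on both ATHB15 BL arrays, at -2.56, and AT5G17350, at -2.95 or lower. On the higher side they were AT1G79420, at 2.34, the Rossmann-fold gene AT3G26760, at 2.90, the pentatricopeptide repeat genes AT1G20300 and AT1G22960, at 2.34 and, with both WOL BL arrays absent, 2.08, and AT1G68220, at 1.89. AT1G26680, of the B3 family of DNA-binding proteins, was higher by at least 2.53, with 198 and 197 in ATHB15 BL and 173, 110.0 and 130.4 in ATHB15 control. Both WOL BL arrays were absent for it, at 4.4 and 4.4, against 66.2 and 141 in WOL control. The terpene synthase gene AT1G33750 and the pectinesterase gene AT5G51500 have no size, since WOL arrays were absent throughout or nearly so, and the TIR-NBS-LRR gene AT5G45210 was higher by at least 1.32. Adjusted p over these genes ran from 0.0557 to 0.0924 (limma).

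Among brassinosteroid genes, few have a named probe set here: 2 of 12 for perception and signalling, 0 of 12 for synthesis and inactivation, and 4 of 15 growth genes. BRL1, a brassinosteroid receptor of vascular cells, had 39 and 56.7 in ATHB15 BL cells, against 51.8, 27.2 and 42.5 in ATHB15 control cells. The WOL signals were 8.3 and 12.3 in WOL BL cells, against 53.8 and 66.5 in WOL control cells. The WOL BL arrays were absent and the low ones, and the ATHB15 groups overlap. The difference was at least 1.64 (adjusted p = 0.247, limma), with an ATHB15 change of 0.19. BIM1, a bHLH partner of BES1, had 261 and 215 in ATHB15 BL cells, against 494, 399 and 256 in ATHB15 control cells. WOL arrays read 621 and 763 in WOL BL cells, against 403 and 376 in WOL control cells, and it differed by -1.41 ± 0.50 (adjusted p = 0.273, limma). EXO, a brassinosteroid-induced gene of cell expansion, had 413 and 233 in ATHB15 BL cells, against 413, 389.8 and 363 in ATHB15 control cells. Its signal in WOL was 569 and 400.4 in WOL BL cells, against 268 and 225 in WOL control cells, and it differed by -1.22 ± 0.54 (adjusted p = 0.38, limma). ARL, a promoter of organ growth, differed by -0.34 and overlapped in both lines, and its direction turned with 1 array, at 0.24 without WOL control B and 0.50 without ATHB15 BL 2. EXPA8, an expansin gene, was not among the present probe sets. In all, 1 of the 5 present brassinosteroid genes, EXLA2, was called, where 28 of all 13329 present probe sets were (0.210%). With 5 genes, from lists made with earlier results of these data known, this count describes EXLA2 alone.

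Wall genes as families had more lower than higher differences without further calls. Of 6 present XTH genes, 6 had a difference below 0, with a median of -1.24 where the median of all present probe sets was 0.10. None of the 6 was called, and 3 had an unadjusted p under 0.05, a level that 16.2% of all present probe sets reached. XTH18 had 8.3 and 22 in ATHB15 BL cells, against 74.8, 57 and 42.3 in ATHB15 control cells. It was called absent on 1 of 2 ATHB15 BL arrays and on 2 of 3 ATHB15 control arrays. Its WOL signals were 1984 and 734 in WOL BL cells, against 745 and 225 in WOL control cells, and it differed by -2.78 ± 0.76 (adjusted p = 0.15, limma), between -3.60 and -1.95 with a WOL array left out. XTH21 had 46.8 and 46.5 in ATHB15 BL cells, against 213.9, 33.2 and 51.5 in ATHB15 control cells. These groups overlap, and ATHB15 controls 2 and 3 were called absent. Its WOL signals were 2736 and 1325 in WOL BL cells, against 978 and 448 in WOL control cells. XTH21 differed by -2.04, or -1.38 without ATHB15 control 1, and EXGT-A3 differed by -1.28. Below 0 were 4 of the 6 when WOL control B was left out, and likewise 4 when the UBQ ratio entered the fit.

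Expansins, which loosen walls, were mixed: 7 of 9 were below 0, with a median of -0.91, which turned to 0.14 with the UBQ ratio as a covariate and was -0.32 without ATHB15 BL 1. Besides the called EXLA2, EXLA1 differed by -2.30 ± 0.72 and EXPB1 by -1.87 ± 0.49 (adjusted p = 0.21 and 0.141, limma). EXLA1 was called absent on ATHB15 BL 2. EXPA15 went the other way, with 2982 and 5373 in ATHB15 BL cells, against 2441, 3964 and 3072 in ATHB15 control cells. In the WOL line it was at 498 and 219.8 in WOL BL cells, against 1173 and 1305 in WOL control cells, without overlap, and its difference was 2.22 ± 0.62 (adjusted p = 0.163, limma).

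In other families with at least 5 present members, 0 were called. Of the tubulin genes, which build microtubules, 7 of 7 were below 0, with a median of -0.70. TUB6 had 884 and 859.5 in ATHB15 BL cells, against 1724, 1323 and 1489 in ATHB15 control cells. WOL cells had 2022 and 2176 in WOL BL cells, against 1455 and 1313 in WOL control cells, and it differed by -1.37 ± 0.45 (adjusted p = 0.233, limma). Of the WRKY factors, known from defence and wound responses, 5 of 5 were below 0, with a median of -0.60. WRKY22 had 31.3 and 25.7 in ATHB15 BL cells, against 119, 150.1 and 110.0 in ATHB15 control cells. The WOL signals were 72.1 and 111 in WOL BL cells, against 77.9 and 51.5 in WOL control cells, and it differed by -2.08 ± 0.56 (adjusted p = 0.144, limma). WRKY53 differed by -1.97 ± 0.61 (adjusted p = 0.206, limma). Its ATHB15 BL signals, 15.3 and 31, were called absent and marginal. The median of the 5 was -1.62 without WOL control A, -1.38 without WOL BL 2 h B and -0.99 without ATHB15 control 1, and 4 of 5 were below 0 whenever 1 WOL array was omitted, and when the fit held the UBQ ratio.

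Aux/IAA repressors of auxin signalling had 4 of 5 below 0, with IAA31 at -2.01, with both WOL control arrays absent, and IAA18 at -1.06. Glutathione transferases had 5 of 6 below 0 (median -0.54), histones 5 of 6 (median -0.43) and bHLH factors 4 of 5 (median -0.07), and these leaned on single arrays and settings. Over the alternatives 3 to 6 of the 6 histones were below 0, 3 without ATHB15 BL 2 and 4 with quantile normalization. For bHLH factors it was 2 to 4 of the 5, with a median above 0 at 0.19 with the UBQ ratio as a covariate and at 0.16 without WOL BL 2 h B, and for glutathione transferases 4 to 6 of the 6. UGT glycosyltransferases were even, with 11 of 22 on each side. The share below 0 among all present probe sets was 45.1%. In the smaller family of jacalin lectins both present members were above 0: JAL34 at 2.60 ± 0.65 and JAL33, absent on all ATHB15 control arrays, at 2.30 ± 0.56 (adjusted p = 0.126 and 0.118, limma).

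Markers of the sorted and neighbouring cells could be checked only in part. The 2 genes whose promoters drive the reporters have no named probe set, and 0 of 6 xylem and 0 of 4 phloem markers have one, so the labelled cell types were not checked against them. PHV, of the class III HD-ZIP family of vascular patterning, had 554 and 1051 in ATHB15 BL cells, against 1111, 882 and 1175 in ATHB15 control cells. WOL arrays read 664 and 625 in WOL BL cells, against 535 and 653 in WOL control cells, and its difference was -0.57. The cortex markers AT1G62500 and JKD were absent on all 9 arrays. LBD16, a pericycle and lateral root gene, differed by -0.99, GSO1, a receptor of the endodermal barrier, by 0.70, EXPA7, a root hair expansin, by -1.21, and BBM, a root stem cell gene, by 1.64. GSO1 was present on all WOL arrays, at 286 and 139 with BL and 497.5 and 173 in the controls. EXPA7 was at 492 and 229 with BL in WOL, against 295 and, called absent, 88.5 in the controls. In ATHB15 both were called absent on most arrays, GSO1 between 5.1 and 42.3 and EXPA7 between 2.2 and 87.3, so these 2 differences rest on ATHB15 signals near the detection limit. With 1 array left out LBD16 ran between -1.83 and -0.14, GSO1 between -0.017 and 1.43, EXPA7 between -2.10 and -0.32 and PHV between -1.02 and -0.12, and LBD16 was 0.34 with the UBQ ratio as a covariate. Of these genes, 0 were called by limma and BBM had an unadjusted p under 0.05 (0.0258). The part of cell mixture in the differences was not tested.

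**Figure D5:**
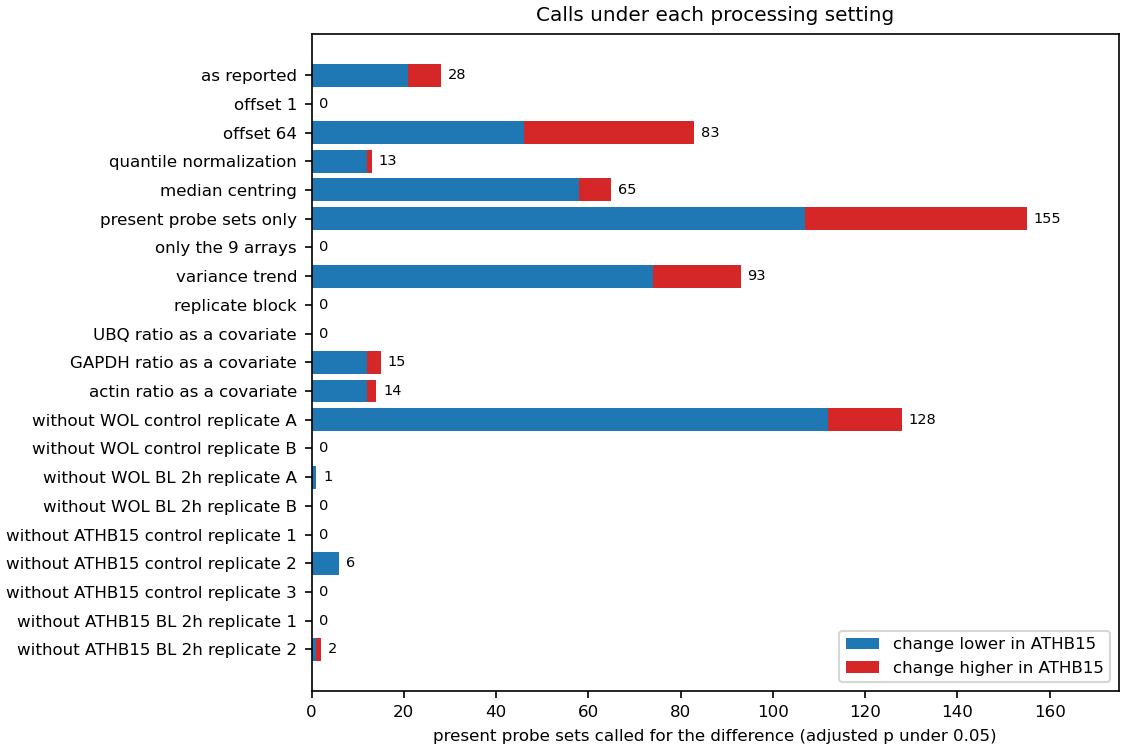
Number of present probe sets called for the difference (bars, lower in ATHB15 in blue and higher in red) as reported and under each alternative processing or with 1 array left out. The count is 28 as reported, 0 in 9 settings and 155 at most.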

How the data were processed

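The signal intensity deposited by the authors is linear, and the 2 deposited tables were equal, with no rounding or tolerance, at 342150 of 342150 values. Per the file headers, one table also holds a detection p-value and, as its other column, a present, marginal or absent call per array. Which software made them is not given in these sources. Of 22810 probe sets, 64 controls were left out. Of the 22746 tested, 13513 match 1 gene, 503 several and 8730 none in the platform annotation. Signals were analysed as log2(signal + 16), so folds of dim genes are understated.

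limma 3.58.1 (R 4.3.3) fitted 1 mean for each of 7 groups over 15 arrays, which share 1 residual spread (8 residual and 6.34 prior degrees of freedom). Tests were two-sided, adjusted by Benjamini-Hochberg over all tested probe sets, and called under 0.05. The fit was also run on simulated data with independent noise for each probe set. That noise had no part shared by an array, so the run cannot speak to the influence of single arrays or RNA quality. Where all arrays of a group were absent, signals under the lowest present one of the array were raised to it, and the size is a limit ("at least", "or lower"). Where none needed raising the fitted value is given and the absent group named. Such limits do not cover the spread between arrays, and no size is given where other groups were mostly absent.

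Members, lists and rules were chosen with earlier results of these data known. Named genes were the called ones, the 34 opposite-sign ones, the 10 next in p in each direction, and members of lists and of families. A planned limit of 20 opposite-sign genes in each direction was not applied. Alternatives were other offsets, quantile normalization, median centring, present probe sets only, the 9 arrays alone, a variance trend, a replicate block, RNA ratios as covariates, and each array left out. Sequences and promoter motifs were not analysed here. The number of arrays limits the precision.

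Replicate labels occur in pairs within each line, and deviations of same-labelled arrays correlated at 0.20 in WOL and at -0.04 and 0.06 in ATHB15. In a group of 2 arrays the deviations mirror each other by construction. With that and fewer than 3 pairs a line, these values cannot decide whether the labels pair arrays. The fit did not pair them, and with the replicate label as a block 0 differences were called.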

Additional observations from a re-analysis of the deposited data

Results flagged for a closer look

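For 28 probe sets the change with 2 h of BL differed between the lines by the direct test of that difference. On the log2 scale, ATHB15 minus WOL, it was -4.56 for AT2G01300 (ATHB15 BL arrays absent), -4.55 for AT1G62480, -3.73 for AT1G73780, -3.59 for AT3G59370, -3.55 for AT1G12080, -3.55 for AT4G11210, -3.43 for AT1G72230, -3.15 for AT1G78260 (ATHB15 BL arrays absent), -3.03 for AT1G79620, -2.84 for AT5G10750, -2.75 for AT1G22810 (ATHB15 BL arrays absent) and -2.57 for AT1G55210. It was 2.84 for AT1G50380, 2.90 for AT3G27150 and 2.99 for AT3G06480. EXLA2, AT2G41810 and AT2G43890 have no size, and their adjusted p was 0.0226, 0.0435 and 0.0492 (limma).

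The unnamed probe sets stood at -3.97 (247925_at), -3.61 (266821_at), -3.22 (250633_at, a limit), -3.13 (251297_at, ATHB15 BL arrays absent), -3.03 (250695_at, ATHB15 BL arrays absent), -2.74 (253049_at), -2.74 (246511_at), -2.69 (250933_at), 2.41 (252372_at) and 2.41 (264317_at). Without WOL control A and B, 247925_at stood at -4.58 and -3.36 and 266821_at at -4.25 and -2.97. The unnamed 264317_at was the 1 of the 28 whose ATHB15 change was not called (adjusted p = 0.0729, limma). Its signals were 1585 and 1853 in ATHB15 BL cells, against 851, 842 and 688 in ATHB15 control cells. In WOL they were 266 and 335 in WOL BL cells, against 671 and 864 in WOL control cells, and both lines separate in opposite directions.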

How the results depend on the processing

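All 28 called differences kept their sign under the 20 alternatives, and calls did not. The 28 were chosen on these same arrays, so their kept signs are no independent check. The count of 28 was 0 with an offset of 1, 83 with 64, 13 with quantile normalization (92.3% lower), 65 with median centring (89.2% lower, 75.0% as reported), 155 with present probe sets only, 0 with the 9 arrays alone, 93 with a variance trend, then 0, 15 and 14 when the ratio of UBQ, GAPDH or actin was a covariate. Without 1 array it was 0 to 128. ATHB15 calls, 242, were 88, 342, 159, 240, 591, 163, 445, 1, 62 and 94 in the same order, and 19 to 255 without 1 array. WOL had 0 calls throughout. The opposite-sign count of 71 was 117, 26, 63, 94, 71, 71, 71, 56, 71 and 73, and 38 to 317. With the replicate label as a block, which sets aside the unpaired ATHB15 control 3, the counts were 0, 72, 0 and 69. Fewer arrays and fewer degrees of freedom come with the 9 arrays alone, the block and each array left out; otherwise the cause was not tested.

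The 61 genes named by test, size or order were chosen on these same arrays, so kept signs are no independent check. Of the 61, 0 changed sign in 20 alternatives. Of 24 other members of lists or families, 3 did: ARL, at 0.24 without WOL control B and between -1.19 and 0.50 without 1 array (0.50 without ATHB15 BL 2), GSO1, between -0.017 and 1.43 (-0.017 without WOL control A), and LBD16 at 0.34 with the UBQ ratio. Of the 61, 239 of 360 calls of the 18 called genes were lost, and 87 of 860 were gained among the other 43. The lowest adjusted p of any probe set was 0.951 with the UBQ ratio, 0.0699 with the 9 arrays alone, 0.0607 with the block and 0.0873 with an offset of 1 (limma). The median difference over all probe sets was 0.09, and 0.01 with median centring. The planned promoter motif search was not run. Signals near background limit the sizes of genes called absent.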
